A study of Homo sapiens with 6 samples.

Results

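The basic helix-loop-helix (bHLH) transcription factors were compared between T84 cells with a control hairpin and T84 cells with a hairpin against ACSL4. Members were the genes that the authors' deposited table assigns to the bHLH family, without ATOH1, NEUROG3, NEUROD1, HES1, HIF1A, EPAS1, HIF3A, ARNT, SREBF1, SREBF2, MYC, ASCL2, AHR and AHRR. Of 58735 genes in the table, 101 carried the bHLH assignment, 10 of them were left out by this selection, and 91 remained. T84 is an established human colorectal cancer line. Its RNA was sequenced in 3 libraries titled shControl, whose genotype label reads WT, and in 3 libraries titled shACSL4, whose genotype label names an Acsl4 knockdown. ACSL4 encodes an enzyme that couples long polyunsaturated fatty acids to coenzyme A. The design text calls the cells knockout cells, but the titles name hairpins, and the titles' group names, shControl and shACSL4, are used here. No source used here gives the hairpins' sequences, their number, a batch or a date. Nothing in the labels says that the libraries of a group were separate cultures. The p-values therefore measure the spread between these libraries, which may be technical.

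A bHLH protein pairs with a second one through its helix-loop-helix, and the pair uses 2 basic regions to grip a 6-letter DNA site, the E-box. The class I partners, or E proteins, are made in most tissues and pair with tissue-restricted bHLH factors that drive lineages such as muscle or neurons. The ID proteins have the helix-loop-helix and no basic region, so they hold E proteins away from DNA. Other branches keep to their own partners, MAX with MYC and MXD proteins and MLX with the glucose sensors MLXIP and MLXIPL. CLOCK pairs with ARNTL (BMAL1) in the circadian clock. The MiT and USF factors also keep to their own partners, at lysosomal and metabolic genes. The HES and HEY repressors do so too, and some of them lie downstream of Notch. In the gut epithelium, Notch, BMP and the clock all act on the balance between dividing crypt cells and mature cells.

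Library totals ran from 14740383 to 17620630 reads assigned to genes, and the first principal component, with 70.3% of the variance, separated the 2 groups. ACSL4 itself was at 75.5, 72.2 and 72 CPM (reads scaled to a library of fixed size) in shControl replicates 1, 2 and 3. It was at 10.3, 9.12 and 11.1 CPM in shACSL4 replicates 1, 2 and 3, lower in every shACSL4 library (log2 fold change -2.85, SE 0.10, adjusted p = 3.57e-12). All 10 markers of colonic epithelium were measured, with a summed level of 1799 to 2126 FPKM in shControl and 2018 to 2273 FPKM in shACSL4. FPKM is a read count scaled by gene length and by a factor for each library, so that levels of different genes can be compared. Of these markers 6 rose and 1 fell. The 7 fibroblast markers summed to at most 0.35 FPKM in any library, with 2 of them, PDGFRA and THY1, at 0 throughout. The 4 endothelial markers summed to at most 0.155 FPKM, with KDR at 0. The 6 leukocyte markers summed to 10.0 to 16.2 FPKM in shControl and 3.16 to 4.38 FPKM in shACSL4. Of these 6, 2 fell, LYZ, which gut epithelium also makes, and CD14, while CD3E was at 0 and PTPRC had 2 to 11 reads per library. What part these markers have in the bHLH values was not tested.

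Of the 91 members, 27 had no read in any library, 21 had reads below the filter on low counts, and 43 were tested. A count of 0 allows up to 3 reads, or 0.171 to 0.202 CPM depending on the library. With edgeR's quasi-likelihood test and an adjusted p under 0.05, 14 members rose in shACSL4, 8 fell and 21 did not pass. Over all 15694 genes tested, 47.2% were called, 24% higher and 23.1% lower. The share of tested members that were called, 51.2%, was thus near that of all genes. The members' median log2 fold change was 0.09, against 0.01 over all genes tested. In 26 of the 43 the CPM values of the groups did not overlap, against 55.1% of all genes. With library size alone as the scaling, the median of all genes moved to 0.13 and 65.6% of all calls were higher. Under that scaling 18 members were called higher and 5 lower. By branch, 3 of 4 ID proteins and both tested E proteins rose, and most members of the tissue-restricted branch were at or near 0. RNA was taken from whole cultures, so fewer cells of a kind and less RNA per cell cannot be told apart.

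**Figure D1:**
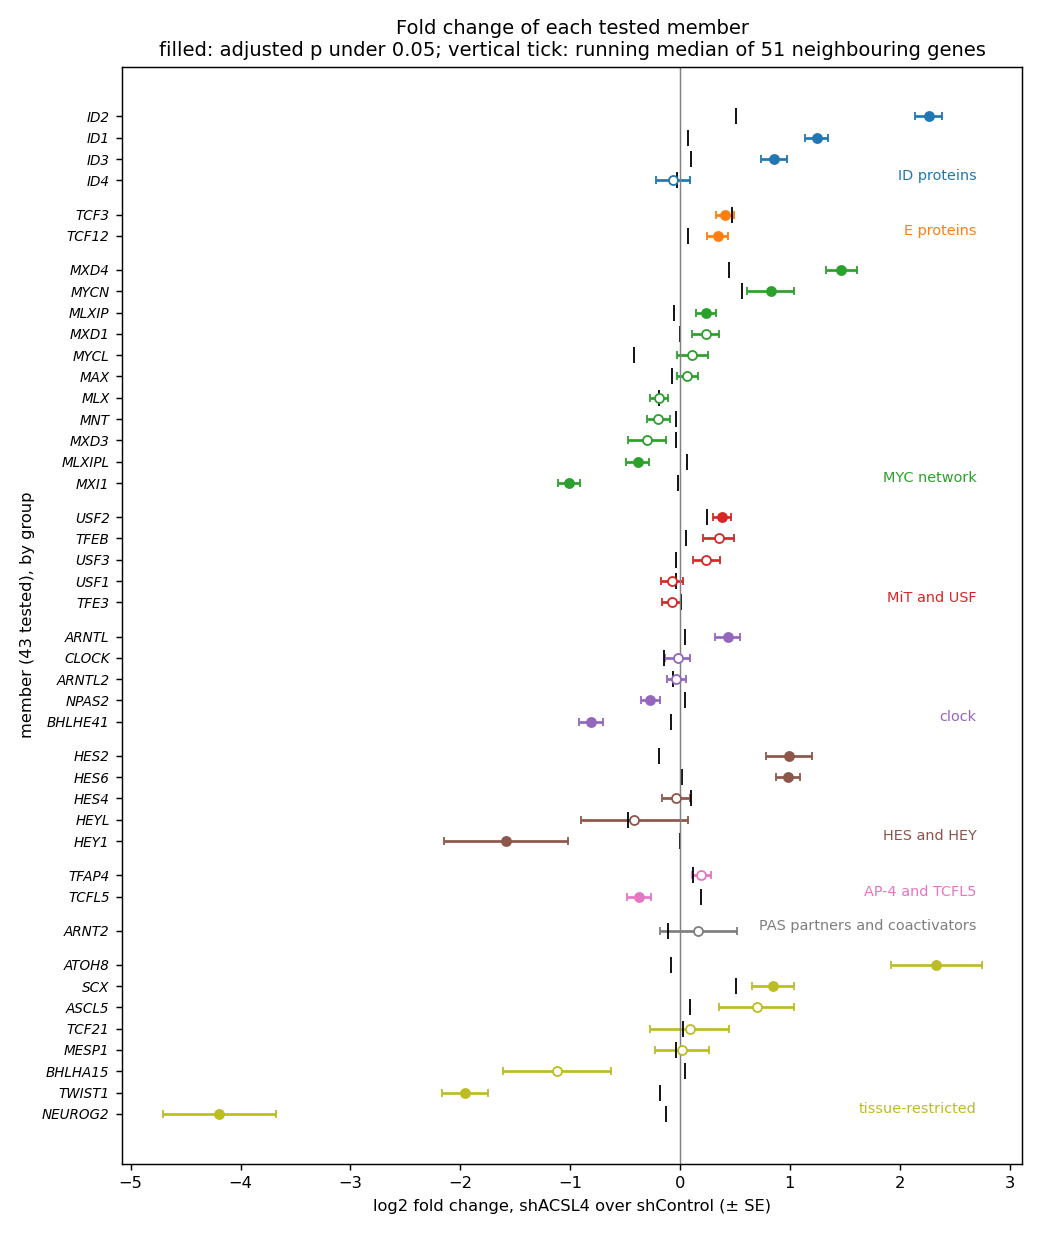
Each point is the log2 fold change (shACSL4 over shControl, bar ± SE) of 1 of the 43 tested bHLH members, grouped by branch. Points are filled where the adjusted p is under 0.05. Each vertical tick is the running median over a window of 51 genes that leaves out the member itself. ID2 at 2.26, ID1 at 1.24 and MXD4 at 1.47 lie far to the right of their ticks, while MXI1, TWIST1 and NEUROG2 lie to the left.

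ID2, ID1 and ID3, the inhibitors that sequester E proteins, rose in shACSL4, and ID4 did not pass the test. ID2 (ENSG00000115738, GRCh38 chr2:8678845-8684453, plus strand) was at 7.02, 7.47 and 6.86 CPM in shControl and 30.6, 34.7 and 37.4 CPM in shACSL4, each time in the order of replicates 1, 2 and 3. Every shACSL4 library lay far above every shControl library. ID2 rose 4.81-fold, from 7.12 ± 0.316 CPM to 34.2 ± 3.45 CPM (SD, n = 3, here and below; log2 fold change 2.26, SE 0.12, adjusted p = 4.33e-10), the largest fold rise among members that averaged 50 reads or more. ID1 (ENSG00000125968, chr20:31605283-31606515, plus strand), a known target of BMP receptors and SMAD proteins, was at 31.8, 32.7 and 36.3 CPM in shControl and 69.5, 78.8 and 90.4 CPM in shACSL4. The groups did not overlap, and replicate 3 was the highest in each. ID1 rose 2.37-fold, from 33.6 ± 2.38 CPM to 79.5 ± 10.5 CPM (log2 fold change 1.24, SE 0.10, adjusted p = 6.9e-08). ID3 (ENSG00000117318, chr1:23557918-23559794, minus strand) was at 32.8, 32.1 and 31.5 CPM in shControl and 49.3, 55 and 70.3 CPM in shACSL4. Its shControl libraries lay within a narrow band and its shACSL4 libraries were all higher but more spread. ID3 rose 1.81-fold, from 32.2 ± 0.655 CPM to 58.2 ± 10.9 CPM (log2 fold change 0.85, SE 0.11, adjusted p = 1.35e-05). ID4, at 7.44, 8.41 and 9.48 CPM in shControl and 7.82, 7.52 and 8.86 CPM in shACSL4, overlapped between the groups (log2 fold change -0.06, SE 0.16, adjusted p = 0.764). The 3 calls held under all 15 other settings and left-out libraries. The running median of the log2 fold change, over a window of 51 genes without the gene itself, was 0.51 for ID2, 0.07 for ID1 and 0.10 for ID3. The genes around ID2 thus also lay above 0 at their median, below ID2 itself.

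The 4 ID genes lie on different chromosomes and carry a common helix-loop-helix. To show how far their reads could be mistaken for one another, 120 coding bases of each were aligned without gaps at the stretch where they are most alike. They are written 5′ to 3′ from the GENCODE release 29 transcripts, with capitals where all 4 have the same base.
ID1: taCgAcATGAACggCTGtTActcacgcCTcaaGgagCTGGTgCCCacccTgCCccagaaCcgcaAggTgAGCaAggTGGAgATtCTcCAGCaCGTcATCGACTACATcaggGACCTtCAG
ID2: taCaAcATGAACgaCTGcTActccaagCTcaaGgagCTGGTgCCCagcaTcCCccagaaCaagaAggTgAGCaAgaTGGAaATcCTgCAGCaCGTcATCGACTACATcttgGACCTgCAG
ID3: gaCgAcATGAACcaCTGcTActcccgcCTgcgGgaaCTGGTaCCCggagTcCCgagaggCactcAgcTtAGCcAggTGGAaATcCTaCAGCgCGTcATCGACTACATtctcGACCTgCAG
ID4: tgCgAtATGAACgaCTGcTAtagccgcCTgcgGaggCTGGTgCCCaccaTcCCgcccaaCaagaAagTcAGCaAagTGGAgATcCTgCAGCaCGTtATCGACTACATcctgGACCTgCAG
The stretch covers coding bases 199 to 318 of 468 in ID1, 109 to 228 of 405 in ID2, 124 to 243 of 360 in ID3 and 196 to 315 of 486 in ID4. Of the 120 positions, 68 were the same in all 4. Identity between pairs ran from 69.2% to 83.3% within the stretch. The longest run shared exactly by any pair of their transcripts was 21 bases. ID1, ID2 and ID3, which rose, and ID4, which was not called, all carry this stretch.

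The promoters of the 3 risen ID genes were also compared, since these genes moved together. The 250 bases before each start are given 5′ to 3′ on the gene's strand (RefSeq, GRCh38.p14), with capitals marking the E-box CAGCTG. They are chr20:31605039-31605288 (plus strand) for ID1, chr2:8681806-8682055 (plus strand) for ID2 and chr1:23559502-23559751 (minus strand) for ID3. The starts are RefSeq's and differ from the ends of the gene spans given above, so that the ID2 and ID3 windows lie inside those spans.
ID1: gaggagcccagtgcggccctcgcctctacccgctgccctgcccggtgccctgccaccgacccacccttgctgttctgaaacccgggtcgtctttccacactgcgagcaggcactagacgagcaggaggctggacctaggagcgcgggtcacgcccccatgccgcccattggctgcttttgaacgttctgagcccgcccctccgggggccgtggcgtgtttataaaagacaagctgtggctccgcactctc
ID2: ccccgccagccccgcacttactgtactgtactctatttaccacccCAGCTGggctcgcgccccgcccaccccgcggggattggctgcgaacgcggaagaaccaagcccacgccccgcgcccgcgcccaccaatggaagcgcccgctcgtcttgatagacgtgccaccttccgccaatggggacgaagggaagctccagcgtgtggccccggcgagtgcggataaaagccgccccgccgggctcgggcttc
ID3: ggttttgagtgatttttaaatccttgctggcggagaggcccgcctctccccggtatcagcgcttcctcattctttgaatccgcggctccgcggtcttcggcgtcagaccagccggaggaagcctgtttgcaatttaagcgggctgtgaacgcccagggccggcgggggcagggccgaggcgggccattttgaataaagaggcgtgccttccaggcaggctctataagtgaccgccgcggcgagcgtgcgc
All 3 windows were rich in G and C, at 66% in ID1, 69.2% in ID2 and 62% in ID3, against a median of 58% over all windows. Only the ID2 window held CAGCTG, starting 205 bases before the RefSeq start. None of the 3 held the other E-box searched, CACGTG. Both motifs read the same on either strand and have no way to overlap each other. CAGCTG was found in 14% of 35116 such windows and CACGTG in 6.34%. Of 91 members, 74 matched a RefSeq promoter, with 100 windows in all, of which 14 held CAGCTG and 9 held CACGTG. The tested members with CAGCTG were ATOH8, HES6, ID2, ID4, MXD3, TFEB, USF1 and USF2. These letters describe the windows and do not show binding.

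**Figure D2:**
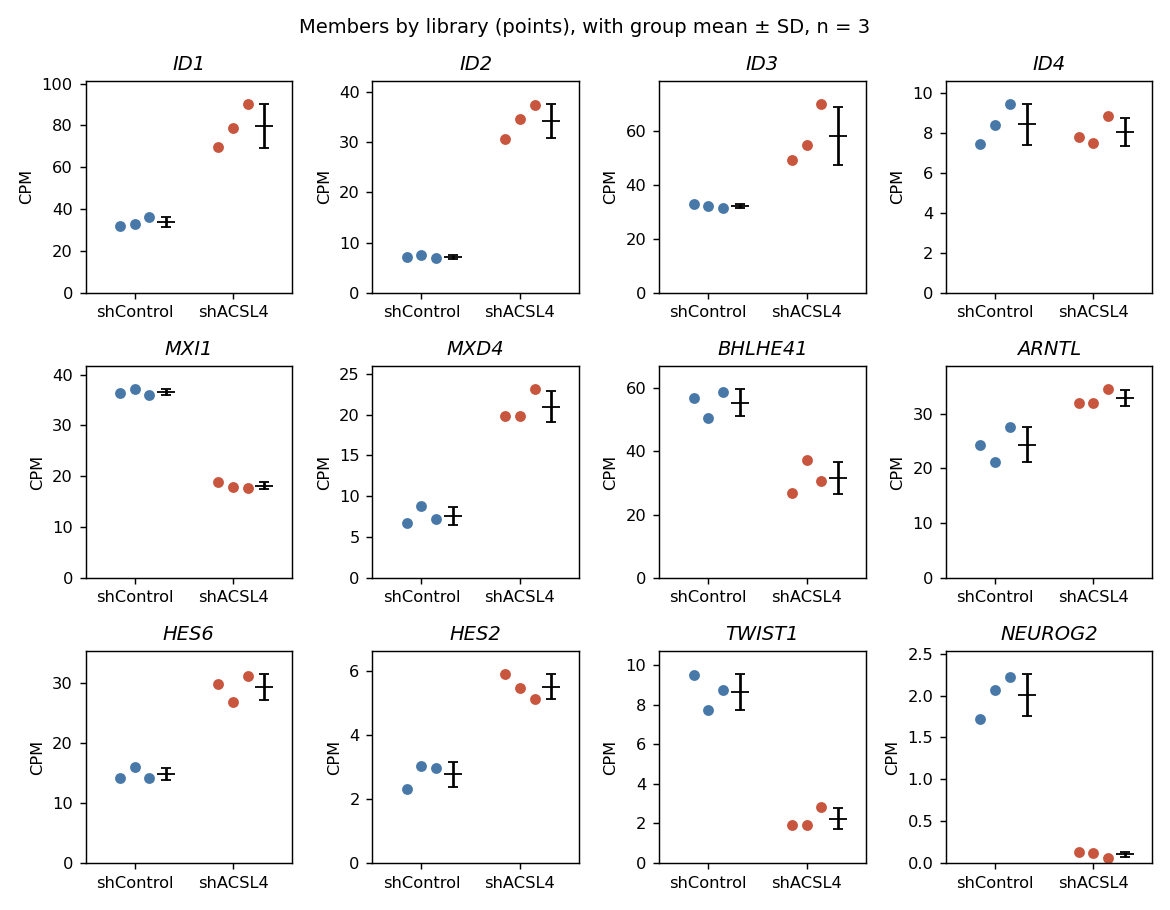
CPM of 12 bHLH members in each library (points; shControl left, shACSL4 right), with the group mean and SD (n = 3) beside them and each axis starting at 0. For ID1, ID2, ID3, MXD4, ARNTL, HES6 and HES2 all shACSL4 points lie above all shControl points, for MXI1, BHLHE41, TWIST1 and NEUROG2 all lie below, and for ID4 they overlap.

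TCF3 and TCF12, E proteins that ID proteins bind, rose as well, at log2 fold changes of 0.41 and 0.34. TCF3, which encodes E12 and E47 (ENSG00000071564, chr19:1609290-1652605, minus strand), was at 188, 181 and 172 CPM in shControl and 244, 244 and 230.3 CPM in shACSL4. The groups did not overlap, and TCF3 rose from 180.4 ± 7.72 CPM to 239 ± 7.98 CPM (log2 fold change 0.41, SE 0.08, adjusted p = 0.000686). TCF12, which encodes HEB, was at 100.4, 85.5 and 107 CPM in shControl and 125, 128 and 118 CPM in shACSL4. All shACSL4 libraries were above all shControl libraries, and TCF12 rose from 97.5 ± 10.9 CPM to 124 ± 4.9 CPM (log2 fold change 0.34, SE 0.09, adjusted p = 0.00603). The genes around TCF3 had a running median of 0.48, and relative to them TCF3 was at -0.07 (adjusted p = 0.538), with the direction turned. TCF4, the remaining E protein, had 0, 2 and 0 reads in shControl and 3, 1 and 0 reads in shACSL4 and was not tested.

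Per length, the summed RNA of the ID genes passed that of the E protein genes by a wider margin in shACSL4. Length here is the union of a gene's annotated exons, 1233 bases for ID1 and 6080 bases for TCF3. The size of the ratio rests on that choice, and other lengths were not tried. Protein was not measured. The summed level of ID1, ID2, ID3 and ID4 was 50.3 FPKM, 51.3 FPKM and 53.4 FPKM in shControl and 99.1 FPKM, 112 FPKM and 131 FPKM in shACSL4. That of TCF3, TCF4 and TCF12 was 41.4 FPKM, 38.8 FPKM and 39.1 FPKM in shControl and 52.4 FPKM, 53 FPKM and 49.5 FPKM in shACSL4. The ratio of ID RNA to E protein RNA was 1.22, 1.32 and 1.37 in shControl and 1.89, 2.11 and 2.64 in shACSL4. Its mean was 1.30 ± 0.0777 in shControl against 2.22 ± 0.386 in shACSL4 (SD, n = 3). The 2 groups of ratios did not overlap. ID1 to ID4 held 13.8%, 14% and 14.7% in shControl and 23.9%, 25.8% and 28.8% in shACSL4 of the summed level of all 91 members. The whole family summed to 364 FPKM, 367 FPKM and 364 FPKM in shControl and 414 FPKM, 434 FPKM and 455 FPKM in shACSL4. Without ID1, ID2 and ID3 the sums were 317 FPKM, 319 FPKM and 315 FPKM in shControl and 318 FPKM, 325 FPKM and 328 FPKM in shACSL4, nearly level between the groups. These sums describe the libraries and carry no test, since the genes were chosen with their changes known.

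**Figure D3:**
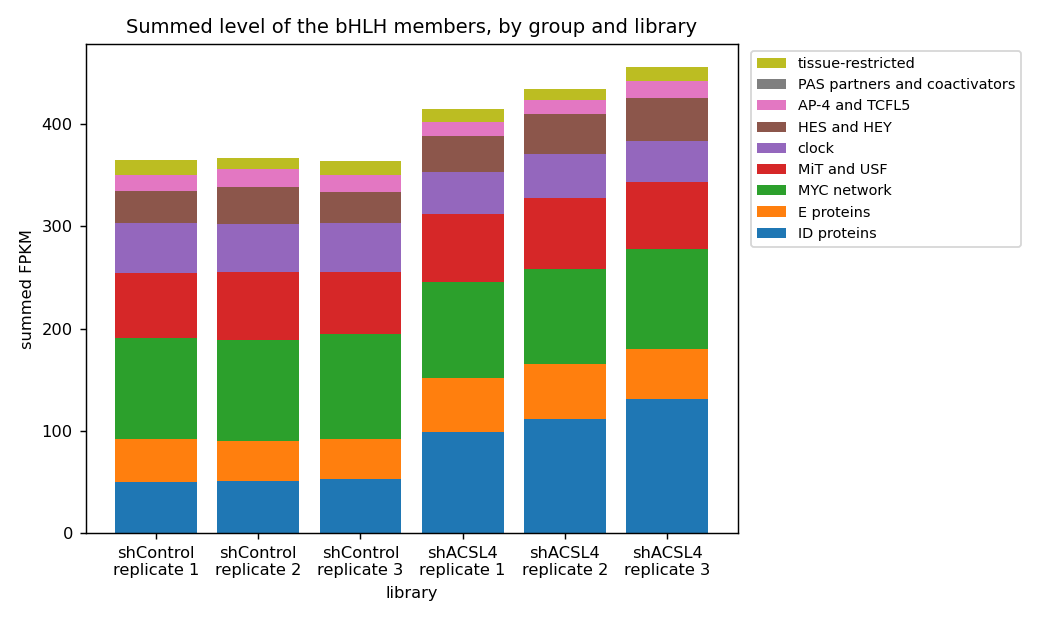
Summed FPKM of the 91 bHLH members in each library, stacked by branch. The ID proteins (bottom block) go from 50.3 to 53.4 FPKM in the shControl libraries to 99.1 to 131 FPKM in the shACSL4 libraries, and the family without ID1, ID2 and ID3 stays between 315 and 328 FPKM in all 6.

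The order of levels within the family shifted with the ID genes. This order, too, rests on the union of annotated exons as gene length. In shControl, TCF3 had the highest level per length of the 43 tested members, at 29.5 ± 1.44 FPKM. ID1 came next at 27.1 ± 1.72 FPKM, TFE3 was the third at 25.6 ± 0.28 FPKM and HES4 the fourth at 24.1 ± 3.27 FPKM. Neighbours in this order overlapped in their libraries, while all 3 libraries of TCF3 lay above those of TFE3 and HES4. In shACSL4, ID1 led at 63.5 ± 8.4 FPKM, with every library above those of TCF3 at 38.8 ± 1.33 FPKM. ID3 moved from rank 9 to rank 3, at 31.9 ± 5.94 FPKM. ID2 moved from rank 29 at 3.21 FPKM to rank 11 at 15.3 FPKM. In the opposite direction, MXI1 went from rank 16 to rank 25 and TWIST1 from rank 22 to rank 34.

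In the MYC network all 11 members were tested, 3 rose and 2 fell, and the clearest shifts were opposite changes of 2 MAX partners of the MXD family. The share called in this branch, 45.5%, was near the 47.2% of all genes tested. MXD proteins pair with MAX and repress genes that MYC pairs activate. MXD4 (ENSG00000123933, chr4:2247432-2262294, minus strand) was at 6.66, 8.79 and 7.26 CPM in shControl and 19.9, 19.8 and 23.2 CPM in shACSL4. No value of one group reached the other, and MXD4 rose 2.77-fold, from 7.57 ± 1.09 CPM to 21 ± 1.9 CPM (log2 fold change 1.47, SE 0.14, adjusted p = 3.04e-07). The genes around MXD4 had a running median of 0.44, and relative to them MXD4 was at 1.02 (adjusted p = 1.75e-05). MXI1 (ENSG00000119950, chr10:110207605-110287365, plus strand) was at 36.4, 37.2 and 36 CPM in shControl and 18.9, 17.8 and 17.8 CPM in shACSL4. It was lower in all shACSL4 libraries and fell 2.01-fold, from 36.6 ± 0.601 CPM to 18.2 ± 0.642 CPM (log2 fold change -1.01, SE 0.10, adjusted p = 4.37e-07). Per length, the ratio of MXD4 to MXI1 was 0.119, 0.154 and 0.132 in shControl and 0.686, 0.726 and 0.85 in shACSL4. MXI1 stayed above MXD4 in every library, by a smaller margin in shACSL4.

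Among the other members around MAX, MYCN rose from a low level, and MAX, MNT, MXD1, MXD3 and MYCL were not called. MAX itself, the shared partner, was at 36.1, 39.3 and 42.8 CPM in shControl and 38.7, 41.3 and 43.7 CPM in shACSL4, with overlapping groups (log2 fold change 0.07, SE 0.10, adjusted p = 0.59). MNT, the most widely expressed MAX-binding repressor, was at 31.4, 29.4 and 35.2 CPM in shControl and 28.1, 29.6 and 26 CPM in shACSL4 (log2 fold change -0.20, SE 0.10, adjusted p = 0.132). MXD1, which is known to rise as epithelial cells mature, was at 28.3, 22.6 and 31.1 CPM in shControl and 29.4, 36.5 and 30.4 CPM in shACSL4 (log2 fold change 0.24, SE 0.12, adjusted p = 0.129). The groups overlapped for MXD1 and MNT. MYCN, a MYC paralog, was at 3.99, 2.7 and 3.9 CPM in shControl and 7.18, 5.13 and 6.52 CPM in shACSL4 and rose (log2 fold change 0.83, SE 0.22, adjusted p = 0.00461), without overlap. MYCL (0.11, adjusted p = 0.545) and MXD3 (-0.30, adjusted p = 0.161) did not pass. Relative to the neighbouring genes, the MYCN value was 0.26 (adjusted p = 0.347) and that of MYCL 0.53 (adjusted p = 0.00617). Without shACSL4 replicate 3, MXD3 was called lower (-0.61, adjusted p = 0.00149), and with library size alone MXD1 was called higher (adjusted p = 0.0404). MXD3 shares 40.4% of its exonic bases with PRELID1 and RAB24, and MNT shares 12.2% with AC006435.1. Reads there cannot be told apart, because no source used here says whether the counting used strand.

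The glucose-sensing arm moved in both directions. MLXIPL (ChREBP) was at 90.0, 97.5 and 112 CPM in shControl and 70.3, 71.4 and 87.7 CPM in shACSL4 and fell (log2 fold change -0.38, SE 0.10, adjusted p = 0.00606), with no overlap between groups. MLXIP (MondoA) was at 339, 318 and 334 CPM in shControl and 422, 385 and 362 CPM in shACSL4 and rose slightly (log2 fold change 0.24, SE 0.09, adjusted p = 0.0362). Their partner MLX, which shares 18.1% of its exonic bases with PSMC3IP, did not pass (-0.19, adjusted p = 0.0601). The MLXIPL call was lost with library size alone (adjusted p = 0.0755). The MLXIP call was lost without the filter (adjusted p = 0.07) and when any library except shACSL4 replicate 3 was left out, with adjusted p from 0.0588 without shControl replicate 2 to 0.194 without shACSL4 replicate 1. MLX was called lower without shControl replicate 3 (adjusted p = 0.0468) and with limma-trend on FPKM (adjusted p = 0.0366).

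Among genes known to follow MondoA and ChREBP, 3 of 5 were tested, 0 rose and 2 fell. ARRDC4, an arrestin family member, fell from 104 ± 0.861 CPM to 38.5 ± 2.33 CPM (log2 fold change -1.43, SE 0.09, adjusted p = 1.23e-09). TXNIP, which restrains glucose uptake, fell from 772 ± 27.5 CPM to 286 ± 17.5 CPM (log2 fold change -1.43, SE 0.09, adjusted p = 2.33e-09). KHK, the enzyme that starts fructose use, did not pass (-0.06, adjusted p = 0.704). Of 18 genes that respond to MYC in many cells, such as nucleolar proteins, 5 rose, 1 fell and 12 were not called. Their median was 0.09. Over all genes tested, 24% were called higher and 23.1% lower. BOP1 (0.74, adjusted p = 1.32e-05), NOP58 (0.47, adjusted p = 0.000177) and POLR1B (0.27, adjusted p = 0.0174) rose, and GNL3 (-0.50, adjusted p = 0.000232) fell. Relative to their neighbours on the chromosome, BOP1 (0.24, adjusted p = 0.0623) and POLR1B (0.19, adjusted p = 0.0843) were not called. POLR1B also missed the threshold without shControl replicate 3 and without shACSL4 replicate 1 or 2 (highest adjusted p 0.0828), and the number of these genes called higher ranged from 2 (without shControl replicate 3) to 7 when a library was left out.

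In the clock branch 5 of 6 members were tested, 1 rose and 2 fell: ARNTL was higher and BHLHE41 and NPAS2 were lower in shACSL4. Of the 5 tested, 60% were thus called, against 47.2% of all genes tested. BHLHE41 (DEC2), which represses CLOCK and BMAL1 targets, was at 57.1, 50.6 and 58.8 CPM in shControl and 27, 37.2 and 30.7 CPM in shACSL4 (ENSG00000123095, chr12:26120026-26125127, minus strand). All shACSL4 values were below all shControl values, and BHLHE41 fell 1.75-fold, from 55.5 ± 4.34 CPM to 31.6 ± 5.14 CPM (log2 fold change -0.81, SE 0.11, adjusted p = 1.84e-05). ARNTL, which encodes BMAL1 (chr11:13276652-13387266, plus strand), was at 24.3, 21.1 and 27.6 CPM in shControl and 32, 32 and 34.5 CPM in shACSL4. It was higher in all 3 shACSL4 libraries and rose from 24.4 ± 3.28 CPM to 32.9 ± 1.45 CPM (log2 fold change 0.43, SE 0.11, adjusted p = 0.00403). CLOCK, the partner of BMAL1, was at 69.3, 50.8 and 68.9 CPM in shControl and 65.2, 66.2 and 54.8 CPM in shACSL4 and overlapped (log2 fold change -0.02, SE 0.12, adjusted p = 0.896). NPAS2, a CLOCK paralog, was at 68.8, 64 and 62.3 CPM in shControl and 53.3, 52.6 and 55.9 CPM in shACSL4 and fell (log2 fold change -0.27, SE 0.08, adjusted p = 0.0148). The NPAS2 call was lost with library size alone (-0.15, adjusted p = 0.164) and without shControl replicate 1, shACSL4 replicate 1 or shACSL4 replicate 2 (highest adjusted p 0.0811). ARNTL2, a BMAL1 paralog, had the highest level per length of the branch and did not pass (-0.03, adjusted p = 0.775). Per length, the branch summed to 48.3 FPKM, 46.9 FPKM and 47.9 FPKM in shControl and 41.1 FPKM, 42.8 FPKM and 39.5 FPKM in shACSL4.

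BHLHE40 (DEC1), the close paralog of BHLHE41 and a gene of many epithelial cells, had 0 reads in all 6 libraries. It lies at chr3:4979116-4985323, plus strand, within a run of 11 consecutive genes of any type that had no read in any library. The run spans chr3:3981981-5069044, from PNPT1P1 to RNF10P1, and holds 3 protein coding genes, SETMAR, ITPR1 and BHLHE40. Beyond the run on the side of BHLHE40, EDEM1 had 7445 reads summed over the libraries. On the other side LRRN1 had 3 summed reads and SUMF1, whose span reaches into that of the run, had 23, while CRBN had 2203 and TRNT1 2483 farther out. Of 19951 coding genes in the table, 3043 (15.3%) had no read in any library. The run was looked for after BHLHE40 was seen at 0, and what lies behind it was not tested.

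**Figure D4:**
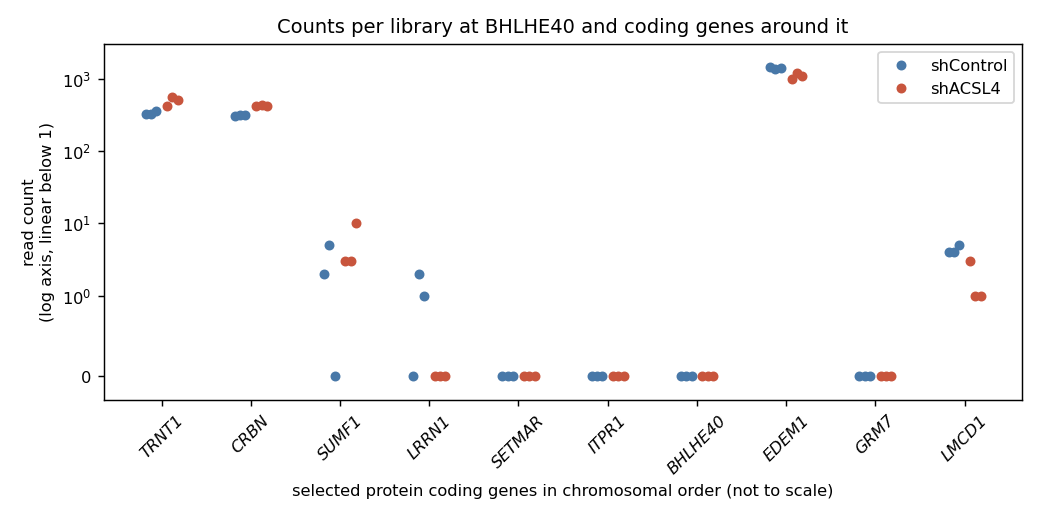
Read counts per library (log axis, linear below 1) at BHLHE40 and selected coding genes around it, in chromosomal order and not to distance. SETMAR, ITPR1 and BHLHE40 are at 0 in all 6 libraries, between SUMF1 and LRRN1, with at most 10 reads per library, and EDEM1, with 986 to 1457 reads per library.

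Of 18 genes of the clock loop and its output, 17 were tested, 5 rose and 8 fell, with a median of -0.27. Among all genes tested, 24% rose and 23.1% fell. PER2, a clock repressor, rose from 21.2 ± 2.27 CPM to 40.8 ± 2.75 CPM (log2 fold change 0.94, SE 0.11, adjusted p = 2.24e-06). CRY1, its partner, fell from 40.0 ± 1.5 CPM to 27 ± 1.32 CPM (log2 fold change -0.56, SE 0.09, adjusted p = 0.000112), and so did the kinase CSNK1D (-0.58, adjusted p = 2.22e-05). With library size alone, 5 of the list were called lower. The libraries carry no sampling time, so the clock phase of the cultures was not measured.

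MXD4 and BHLHE41 were the called members of at least 1.5-fold change whose promoters held CACGTG, the E-box that MYC, MAX, CLOCK and DEC proteins read. Their 250 bases before the start are given 5′ to 3′ on the gene's strand (RefSeq, GRCh38.p14), with that motif in capitals. The windows are chr4:2262110-2262359 (minus strand) for MXD4 and chr12:26125038-26125287 (minus strand) for BHLHE41.
MXD4: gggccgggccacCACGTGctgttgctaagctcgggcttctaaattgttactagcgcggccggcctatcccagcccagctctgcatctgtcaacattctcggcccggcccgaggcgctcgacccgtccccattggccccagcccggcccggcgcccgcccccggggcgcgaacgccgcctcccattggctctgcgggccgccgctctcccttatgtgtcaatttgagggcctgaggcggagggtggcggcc
BHLHE41: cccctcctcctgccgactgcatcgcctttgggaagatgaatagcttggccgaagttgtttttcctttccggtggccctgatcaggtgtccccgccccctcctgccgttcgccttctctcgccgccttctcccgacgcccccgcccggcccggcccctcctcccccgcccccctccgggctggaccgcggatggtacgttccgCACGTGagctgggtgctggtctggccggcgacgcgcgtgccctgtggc
Both windows reach into the gene spans given above, since the starts are RefSeq's. CACGTG begins 238 bases before the RefSeq start of MXD4 and 48 bases before that of BHLHE41. MXD4 rose and BHLHE41 fell, so the 2 holders did not move alike. The other tested members with CACGTG were MLX, MNT and TCF12, of which TCF12 was called. In all, 5 of 35 tested members with a matched promoter held CACGTG.

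In the MiT and USF branch 5 of 7 members were tested and 1 rose. That is 20% called, against 47.2% of all genes tested. USF2, which binds E-boxes of metabolic genes with USF1, was at 84.2, 87.3 and 78.6 CPM in shControl and 108, 109 and 110.1 CPM in shACSL4. The groups did not overlap, and USF2 rose from 83.4 ± 4.4 CPM to 109 ± 1.33 CPM (log2 fold change 0.39, SE 0.08, adjusted p = 0.000986). USF1 was at 36.4, 41.9 and 34.2 CPM in shControl and 36.7, 33.9 and 36.3 CPM in shACSL4 and overlapped (log2 fold change -0.07, SE 0.10, adjusted p = 0.564). TFEB, the regulator of lysosome formation, was at 8.92, 9.23 and 7.8 CPM in shControl and 10.5, 11.2 and 11.4 CPM in shACSL4. All its shACSL4 libraries were above all shControl libraries, and the adjusted p missed the threshold by a small margin (log2 fold change 0.35, SE 0.14, adjusted p = 0.0501). TFE3, its relative, was at 111, 110.2 and 109.8 CPM in shControl and 99.1, 116 and 98.8 CPM in shACSL4 (log2 fold change -0.07, SE 0.09, adjusted p = 0.509). USF3 did not pass (0.24, adjusted p = 0.116). MITF, the pigment cell factor, had 0, 1 and 0 reads in shControl and 5, 6 and 4 reads in shACSL4. That is a ratio of 14.6 with an exact 95% interval of 2.24 to 614, which covers counting error only. TFEC had 1, 0 and 0 reads in shControl and 0, 2 and 0 reads in shACSL4. Relative to the neighbouring genes USF2 was not called (0.14, adjusted p = 0.176). TFEB was called higher with library size alone (adjusted p = 0.0128), when only genes averaging 50 reads were kept (adjusted p = 0.0395) and without shControl replicate 2 (adjusted p = 0.0464), and USF3 with library size alone (adjusted p = 0.0316) and without shACSL4 replicate 3 (adjusted p = 0.0209).

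Lysosomal genes of the CLEAR network, which TFEB and TFE3 are known to activate, moved both ways. Of 34 such genes, 31 were tested, 9 rose and 10 fell, with a median of -0.02. Among all genes tested, 24% rose and 23.1% fell. The galactosidase GLA fell from 78.3 ± 4.71 CPM to 34.5 ± 1.79 CPM (log2 fold change -1.18, SE 0.09, adjusted p = 1.92e-08). The glucosidase GAA (-0.75, adjusted p = 1.37e-06) and the membrane protein LAMP2 (-0.75, adjusted p = 2.57e-06) fell as well. MCOLN1, the lysosomal calcium channel, rose from 5.79 ± 0.754 CPM to 14.7 ± 1.65 CPM (log2 fold change 1.34, SE 0.15, adjusted p = 2.65e-06). The summed level of the list was 904 to 950.2 FPKM in shControl and 754 to 764 FPKM in shACSL4.

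In the HES and HEY branch 5 of 10 members were tested, 2 rose and 1 fell. That is 60% of the 5 tested, against 47.2% of all genes tested. HES6, which binds HES1 and curbs its repression, was at 14.2, 16 and 14.3 CPM in shControl and 29.8, 27 and 31.3 CPM in shACSL4 (ENSG00000144485, chr2:238238267-238240662, minus strand). The groups did not overlap, and HES6 rose 1.98-fold, from 14.8 ± 1.02 CPM to 29.4 ± 2.21 CPM (log2 fold change 0.98, SE 0.11, adjusted p = 2.44e-06). The next gene on that strand, PER2 of the clock loop (chr2:238244038-238290102, minus strand), rose by 0.94 on the log2 scale, while the running median around HES6 was 0.02. HES2, a repressor of the same family, was at 2.32, 3.01 and 2.96 CPM in shControl and 5.9, 5.47 and 5.12 CPM in shACSL4. It rose 1.99-fold from a low level, again without overlap (log2 fold change 0.99, SE 0.21, adjusted p = 0.00103). HES4, the most abundant of the branch per length, was at 25.9, 31 and 24.3 CPM in shControl and 22.1, 27.1 and 30.0 CPM in shACSL4 and overlapped (log2 fold change -0.04, SE 0.13, adjusted p = 0.838). HEY1, a known direct target of Notch, had 23, 11 and 16 reads in shControl and 1, 11 and 5 reads in shACSL4. Replicate 2 had 11 reads in both groups, and on the CPM scale, which accounts for library size, the groups lay close without overlap. HEY1 fell (log2 fold change -1.58, SE 0.56, adjusted p = 0.0261), and its summed counts of 50 and 17 gave a ratio of 0.331 (95% interval 0.179 to 0.583, counting error only). That call was lost with DESeq2 (adjusted p = 0.0803) and without shControl replicate 3 (adjusted p = 0.0634), shACSL4 replicate 1 (-1.12, adjusted p = 0.123) or shACSL4 replicate 3 (adjusted p = 0.0775). Without shACSL4 replicate 2 its log2 fold change was -2.41, and on the log2(FPKM + 1) scale -0.26. HES7 had 4, 10 and 4 reads in shControl and 1, 2 and 0 reads in shACSL4 and was below the filter. HES5 and HEY2 had 1 read each, and HES3 and HELT had none.

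Of 19 Notch ligands, receptors and cofactors, 17 were tested, 2 rose and 7 fell, with a median of -0.11. Among all genes tested, 24% rose and 23.1% fell. The ligand DLL1 was at 3.75, 4.21 and 3.83 CPM in shControl and 25.5, 18.1 and 25.6 CPM in shACSL4 and rose from 3.93 ± 0.243 CPM to 23.1 ± 4.3 CPM (log2 fold change 2.55, SE 0.17, adjusted p = 3.05e-09). The receptor NOTCH3 fell from 48.1 ± 5.84 CPM to 21.3 ± 1.2 CPM (log2 fold change -1.17, SE 0.11, adjusted p = 1.86e-07), and the ligand JAG2 fell too (-0.55, adjusted p = 9.62e-05). DTX1, a Notch-binding ubiquitin ligase, fell from a low level (log2 fold change -2.63, SE 0.42, adjusted p = 7.63e-05). NRARP, which had the highest level per length of the list, rose slightly (log2 fold change 0.23, SE 0.09, adjusted p = 0.0448). Its level was 79.1 ± 5.76 FPKM in shControl and 91.6 ± 5.04 FPKM in shACSL4. Relative to its neighbours on the chromosome NRARP was not called (0.20, adjusted p = 0.0794). On the log2(FPKM + 1) scale DLL1 was at 1.85 and DTX1 at -0.57. The number called higher was 1 with DESeq2, with median-of-ratios scaling, as well as when shControl replicate 1 or shACSL4 replicate 2 was left out, and it was 4 with library size alone.

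Of 16 genes of BMP signalling, the pathway known to switch on ID1, ID2 and ID3, 14 were tested. Of these, 7 rose and 3 fell, with a median of 0.32. Among all genes tested, 24% rose and 23.1% fell. BMP4, a ligand, was at 73.8, 61 and 58.6 CPM in shControl and 35.9, 30.7 and 33.5 CPM in shACSL4 and fell from 64.5 ± 8.14 CPM to 33.3 ± 2.62 CPM (log2 fold change -0.95, SE 0.10, adjusted p = 1.44e-06). BMP2, a related ligand, fell (-0.45, adjusted p = 0.000646), and BMP7, another ligand, rose from 24.3 ± 2.72 CPM to 36.9 ± 2.83 CPM (log2 fold change 0.60, SE 0.11, adjusted p = 0.000229). GREM1, a secreted BMP antagonist, was at 0.773, 0.753 and 0.74 CPM in shControl and 4.23, 5.81 and 3.92 CPM in shACSL4 and rose (log2 fold change 2.61, SE 0.30, adjusted p = 2.06e-06). On the log2(FPKM + 1) scale GREM1 was at 0.32. Among these ligands 2 fell and 1 rose. The receptors BMPR1A (0.46, adjusted p = 0.000674) and ACVR1 (0.32, adjusted p = 0.0457, with overlapping groups) rose. So did SMAD6 (0.41, adjusted p = 0.00099), SMAD9 (0.78, adjusted p = 0.0255) and SMAD1 (0.35, adjusted p = 0.0493). SMAD4 fell (-0.34, adjusted p = 0.0163). The list holds antagonists such as GREM1 beside ligands, receptors and SMADs, so its counts and median give no direction of signalling. What part the BMP genes have in the values of ID1, ID2 and ID3 was not tested. The number called higher was 4 with DESeq2 and 4 without shACSL4 replicate 1.

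**Figure D5:**
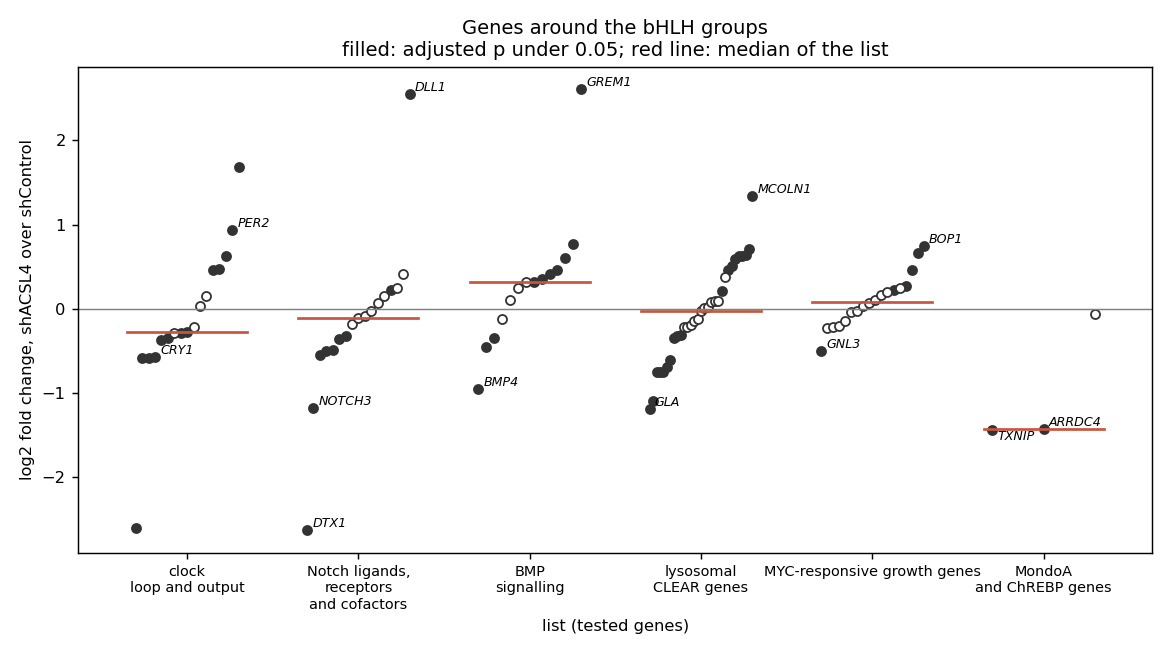
Log2 fold change (shACSL4 over shControl) of each tested gene in 6 lists of genes around the bHLH branches, filled where the adjusted p is under 0.05, with a line at each list's median. PER2, DLL1, GREM1 and MCOLN1 lie high and BMP4, NOTCH3, TXNIP and ARRDC4 low, and the medians of the 5 larger lists lie between -0.27 and 0.32.

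Of the remaining factors with broad expression, TCFL5, a basic helix-loop-helix factor known from male germ cells, fell. It was at 38, 40.3 and 43 CPM in shControl and 27.6, 29.7 and 36.2 CPM in shACSL4, without overlap (log2 fold change -0.37, SE 0.11, adjusted p = 0.0088). TFAP4 (AP-4), a MYC target, was at 38.8, 39.7 and 36 CPM in shControl and 44.9, 42.3 and 44.1 CPM in shACSL4. Its groups did not overlap, yet it did not pass (log2 fold change 0.20, SE 0.09, adjusted p = 0.0811). With library size alone, TFAP4 was called higher (adjusted p = 0.00838) and the TCFL5 call was lost (adjusted p = 0.0938), as it was without shACSL4 replicate 1 (adjusted p = 0.0608). Of the 2 PAS-domain members outside the clock branch, ARNT2 did not pass (log2 fold change 0.17, SE 0.35, adjusted p = 0.718) and SIM1 had no read.

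The tissue-restricted factors were mostly silent: of 46, 23 had no read in any library, 15 had reads below the filter and 8 were tested, of which 2 rose and 2 fell. Of the 8 tested, 50% were thus called, near the 47.2% of all genes tested. Muscle factors MYF5, MYF6, MYOD1 and MYOG were at 0, as were OLIG1, OLIG2 and OLIG3 of the oligodendrocyte lineage and PTF1A of the exocrine pancreas. TWIST1 (ENSG00000122691, chr7:19020991-19117672, minus strand), a mesoderm factor known for its part in epithelial-mesenchymal transition, was at 9.52, 7.72 and 8.74 CPM in shControl and 1.92, 1.94 and 2.85 CPM in shACSL4. All shACSL4 libraries were lower, and TWIST1 fell 3.87-fold, from 8.66 ± 0.902 CPM to 2.24 ± 0.529 CPM (log2 fold change -1.95, SE 0.21, adjusted p = 1.23e-06). The summed markers of fibroblasts, a cell type in which TWIST1 is known, were at 0.167 to 0.255 FPKM in shControl and 0.161 to 0.35 FPKM in shACSL4. NEUROG2, a neuronal determination factor (chr4:112513516-112516172, minus strand), had 29, 33 and 33 reads in shControl and 2, 2 and 1 reads in shACSL4. It fell (log2 fold change -4.19, SE 0.51, adjusted p = 3.87e-06), and its summed counts of 95 and 5 put shACSL4 19.5-fold lower (95% interval 8.09 to 61.6, counting error only). On the log2(FPKM + 1) scale the values were -1.33 for TWIST1 and -0.84 for NEUROG2.

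ATOH8, a distant relative of the neurogenic atonal factors, had 4, 14 and 6 reads in shControl and 44, 46 and 36 reads in shACSL4. All shACSL4 libraries were above all shControl libraries, and ATOH8 rose (log2 fold change 2.33, SE 0.41, adjusted p = 0.000189). Its summed counts of 24 and 126 gave a ratio of 5.1 (95% interval 3.28 to 8.26). Without shControl replicate 2, which had the most reads of its group, the log2 fold change of ATOH8 was 2.99, and on the log2(FPKM + 1) scale it was 0.39. SCX (scleraxis), a tendon factor, was at 4.16, 3.52 and 3.77 CPM in shControl and 7.38, 5.7 and 7.59 CPM in shACSL4 and rose (log2 fold change 0.85, SE 0.19, adjusted p = 0.00175). SCX lies within BOP1 on the other strand, and BOP1 rose by 0.74 on the log2 scale. Relative to the neighbouring genes SCX was not called (0.34, adjusted p = 0.164). BHLHA15 (MIST1), a factor of secretory cells, did not pass (log2 fold change -1.12, SE 0.49, adjusted p = 0.0695) but was called lower with limma-trend on FPKM (adjusted p = 0.033) and without shACSL4 replicate 1 (-1.63, adjusted p = 0.0413). ASCL5 did not overlap between groups and did not pass (log2 fold change 0.70, SE 0.34, adjusted p = 0.102), though it was called with limma-trend on FPKM (adjusted p = 0.0269). TCF21 (0.09, adjusted p = 0.864), which shares 30.4% of its exonic bases with TARID, and MESP1 (0.02, adjusted p = 0.959) did not pass.

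In the authors' deposited table, 14 members were called higher and 7 lower at an adjusted p under 0.05, and 42 of the 43 tested members had the same call there as here. The exception was HEY1, with a log2 fold change of -1.63 and an adjusted p of 0.0777 in the authors' deposited table. Of the 22 members called here, 13 kept call and direction in each of the 15 other settings and left-out libraries in which they were tested: ARNTL, ATOH8, BHLHE41, HES2, HES6, ID1, ID2, ID3, MXD4, MXI1, NEUROG2, TCF12 and TWIST1.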

How the data were processed

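RNA of 3 shControl and 3 shACSL4 libraries of T84 cells was sequenced after removal of ribosomal RNA, per the labels' protocols. Per the submitters' processing notes, the tools were CASAVA and HISAT2 and the build was GRCh38 (hg38). How reads were counted, and whether by strand, is not given in the sources used here. The authors deposited raw read counts per gene and FPKM values per library, per the file headers. The deposited group mean signal, the authors' log2 fold changes and the authors' p-values stand in the same table. Its control columns are headed NC and were taken as shControl, the only group beside shACSL4, by number. Deposited gene lengths equalled the union of GENCODE release 29 exons for all 91 members.

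Under R 4.3.3, the counts were filtered with filterByExpr, scaled with TMM and fitted with no covariate by edgeR 4.0.16 (quasi-likelihood test). P-values were adjusted after Benjamini and Hochberg over all 15694 genes tested, and genes were called under 0.05. Log2 fold changes are shACSL4 over shControl. The CPM given here rest on TMM-scaled totals, and levels of different genes are compared in FPKM only. Values are means ± SD over 3 libraries. The libraries are not said to carry molecular identifiers, so PCR copies may be counted as separate molecules, and intervals and floors cover counting error only. Library totals are the depth behind each value.

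The members and gene lists were chosen with earlier results of these data known. Values per library are given for called members of at least a log2 fold change of 1 and a mean of 50 counts, for the 2 called members of smallest adjusted p per branch, and for a set list of core members. Up to 4 called genes of smallest adjusted p are named per pathway list, and some genes that these rules select are not reported here. Other members, other BMP genes and NRARP were named after their values were seen. Alternatives in testing were DESeq2 1.42.0, limma-voom and, on log2(FPKM + 1), limma-trend (limma 3.58.1). Alternatives in scaling and filtering were library size alone, median-of-ratios factors, no filter, and only genes averaging 50 reads. The replicate number was also fitted as a block, each library was left out in turn, and each fold change was set against the running median of its neighbours. That median was taken over a window of 51 tested genes, without the gene itself. The p-values of that last setting leave out the error of the running median.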

Additional observations from a re-analysis of the deposited data

How the results depend on the processing

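The count of 14 members called higher stayed within 1.5 times under every alternative, and that of 8 called lower did so under every alternative but library size alone, where it was 5. Leaving out 1 library gave 13 to 15 higher and 6 to 8 lower. The replicate numbers did not pair the libraries (correlations of same-numbered deviations 0.0623, -0.00128 and 0.00753), and with the replicate number as a block 14 members were called higher and 8 lower. TCF3 turned to -0.068 relative to neighbouring genes. Library size alone also gave 5 clock loop genes lower, 4 Notch genes higher and 8 MYC-responsive genes higher. Limma-trend on FPKM gave 3 clock loop genes and 1 Notch gene higher. DESeq2 gave 1 Notch gene and 4 BMP genes higher, and median-of-ratios scaling 1 Notch gene higher. Relative to neighbours, 1 Notch gene was called higher, and of the MYC-responsive genes 2 were higher and 2 lower. Over left-out libraries, Notch genes higher ran from 1 to 3, BMP genes higher from 4 to 6, MYC-responsive genes higher from 2 to 7 and lower from 1 to 3. Beyond the settings' own construction, the cause was not tested. Groups of 3 libraries and low counts limit what could be called for the 21 members below the filter, and for HEY1 and BHLHA15, whose calls changed between settings.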
